A study of Mus musculus with 6 samples.

Results

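The nuclear factor I (NFI) family consists of the paralogous genes Nfia, Nfib, Nfic and Nfix, which were taken by their symbols from the deposited expression tables. All 4 were found among the 17006 genes measured in each library, and all 4 passed the filter on low values described below. Bulk RNA was sequenced from primary cultures of neural stem cells. The cells derive from the subventricular zone (SVZ), a niche beside the lateral ventricles in which the adult mouse brain keeps its stem cells. Donors were C57BL/6 mice of 2 months (young, 3 libraries) or of 15 to 18 months (aged, 3 libraries), and no allele or agent is named in the labels for either age. Each dissociation joined SVZ tissue of 5 mice, and a proliferation medium was used for culture. The values therefore describe cultured cells, and which libraries came from separate pools or cultures is not stated, so p-values measure the spread between these libraries, which may be technical.

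NFI proteins are transcription factors that bind DNA as dimers, with members able to pair with themselves or with one another through a conserved N-terminal domain. In the nervous system they are known for switching on glial genes late in development and for the maturation of neurons. In neural stem cells of the adult brain, Nfix is known for its part in quiescence. Levels are in FPKM, fragments mapped to a gene divided by transcript length and by library size, which makes the levels of different genes comparable as far as the lengths used are right.

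The paralogs are much alike in the stretch that encodes the DNA-binding domain, and a short window of it is shown because similar copies can share sequencing reads. The 90 coding bases in which the 4 genes resemble one another most, read from GENCODE M21 transcripts on GRCm38 (the assembly also called mm10), are given 5′ to 3′ on the coding strand, with capitals at each base that is not the same in all 4 genes.
Nfia: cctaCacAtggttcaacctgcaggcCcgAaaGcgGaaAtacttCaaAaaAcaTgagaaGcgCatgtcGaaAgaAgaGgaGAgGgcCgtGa
Nfib: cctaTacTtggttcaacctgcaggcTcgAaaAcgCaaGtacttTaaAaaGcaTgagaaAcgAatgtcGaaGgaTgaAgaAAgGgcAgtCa
Nfic: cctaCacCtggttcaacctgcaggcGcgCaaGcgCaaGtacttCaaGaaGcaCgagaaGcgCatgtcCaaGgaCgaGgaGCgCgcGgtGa
Nfix: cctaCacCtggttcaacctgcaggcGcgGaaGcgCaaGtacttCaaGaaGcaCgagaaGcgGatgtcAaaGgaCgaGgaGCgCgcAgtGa
The window lies in a single exon of each gene, at chr4:97783134-97783223 on the plus strand for Nfia and, on the minus strand, at chr4:82498628-82498717 for Nfib, chr10:81420657-81420746 for Nfic and chr8:84772174-84772263 for Nfix.

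Within this window 68 of 90 bases were identical in all 4 genes, and 21 of the 22 that differed stood at the third base of a codon. Nfic and Nfix were the closest pair there, with 4 differing bases, against 14 to 18 for the other pairs. Over the whole aligned coding sequences the paralogs were less alike, with an identity of 63.7% for Nfib and Nfix, the lowest of the 6 pairs, and 70.2% for Nfia and Nfix, the highest. The longest run of bases shared by transcripts of a pair was 32, for Nfic and Nfix, and 18 to 21 for the other pairs. No run of 50 bases was shared between any pair. An exact match of that length would therefore separate the paralogs, and the read length is not given in the sources used here. Among transcripts of other genes, on either strand, 24 of 6313 such runs of Nfic occurred in Gm16104 and 92 of 5866 of Nfix in G430095P16Rik, both annotated by RefSeq as long noncoding RNAs within these genes.

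Nfia (gene 18027) spans chromosome 4, 97578066 to 98118876, and Nfib (gene 18028) lies on the same chromosome at 82290173 to 82506751. Nfic (gene 18029) is on chromosome 10, 81396191 to 81431919, and Nfix (gene 18032) on chromosome 8, 84704712 to 84801238. Long 3′ untranslated regions make up most of the longest matched transcript of each gene. In Nfia they take 7639 of 9526 bases, beside 1527 coding bases, and in Nfix 3954 of 5476 bases. For Nfia 2 of 3 listed transcripts could be matched to a sequence, and the length of the remaining one is not known here. The listed transcripts of Nfix run from 1403 to 5476 bases, those of Nfib from 3267 to 8770 and those of Nfic from 3348 to 6237, while the matched transcripts of Nfia have 9382 and 9526 bases. A gene-level value does not separate these transcripts.

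The cells expressed all 4 paralogs, in the order Nfix, Nfib, Nfia, Nfic from the highest FPKM to the lowest, in each of the 6 libraries. Nfix, the member tied to adult stem cell quiescence, was at 48.13, 54.36 and 54.0 FPKM in the young and 53.26, 59.54 and 52.65 FPKM in the aged libraries. Its mean over all 6 libraries, 53.7 ± 3.66 FPKM (SD, n = 6), ranked among the top 9.3% of all 17006 genes. The lowest value was that of young 1 and the highest that of aged 2, and the ranges of the ages overlapped.

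Nfib, which with Nfia drives glial differentiation in the embryonic brain, was at 32.75, 32.28 and 33.2 FPKM in the young and 30.11, 33.34 and 29.32 FPKM in the aged libraries. Young libraries lay close together, while aged 1 and aged 3 were below all of them and aged 2 was above. Nfia itself, an early regulator of the onset of gliogenesis, was at 17.35, 17.4 and 17.22 FPKM in the young and 16.38, 17.31 and 17.69 FPKM in the aged libraries, so that aged values lay on both sides of the young ones. Nfic, known best for its role in tooth root formation, was the lowest member, with 12.24, 12.87 and 12.11 FPKM in the young and 10.9, 12.29 and 12.22 FPKM in the aged libraries. Here aged 1 was lower than the other 5 libraries. Over 6 libraries the means were 31.8 ± 1.70 FPKM for Nfib, 17.2 ± 0.444 FPKM for Nfia and 12.1 ± 0.649 FPKM for Nfic (SD, n = 6 each), within the top 16.4%, 28.1% and 35.7% of genes.

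**Figure D1:**
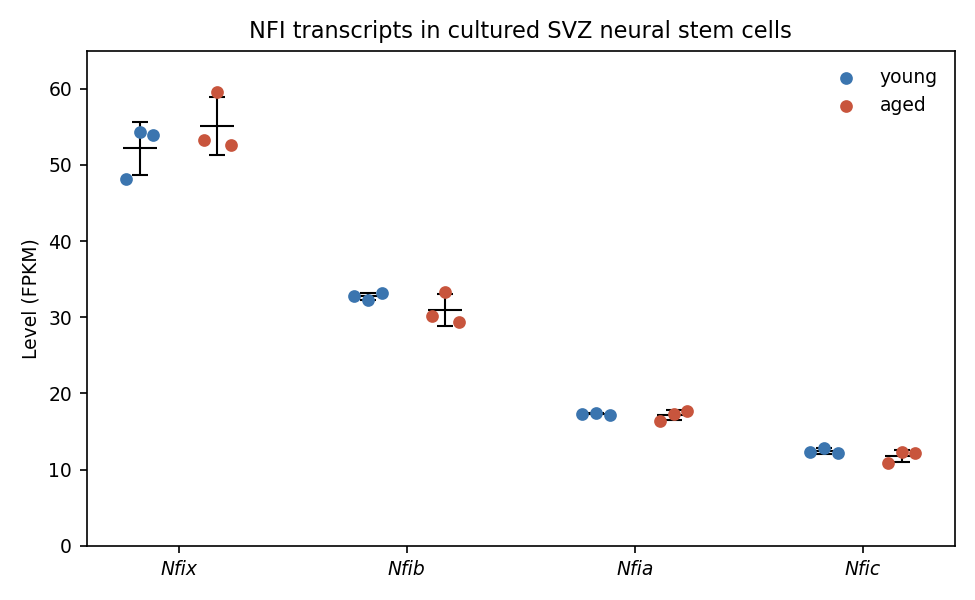
Level in FPKM (vertical axis) of each NFI gene, with 1 point per library, young in blue and aged in red, and black bars for the mean ± SD of 3 libraries. Nfix lies at 48.13 to 59.54 FPKM, above every value of the other genes, and the young and aged points of each gene overlap.

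Steps in the low values put the libraries at about 5240000 to 5400000 counted reads. At that depth the values correspond to about 811 to 892 reads per library for Nfia, by the lengths of its 2 matched transcripts out of 3 listed. For the other members all listed transcripts were matched. Over their shortest and longest the figure was 507 to 1572 reads for Nfib, 193 to 432 for Nfic and 363 to 1708 for Nfix. Read sampling alone would then give a coefficient of variation of 3.38% to 3.41% for Nfia, 2.59% to 4.25% for Nfib, 4.99% to 6.81% for Nfic and 2.53% to 4.99% for Nfix. Within groups the observed coefficients were 2.79%, 4.84%, 5.15% and 6.82% in that order. The observed value of Nfix was thus above that of read sampling at either length, and that of Nfia was below it at its matched lengths. Both rest on 3 libraries a group, and the differences from read sampling were not tested. Among 2571 genes with a mean within 2-fold of that of Nfix, 81.6% varied less. The same comparison gave 46.1% for Nfib, 27.5% for Nfic and 6.7% for Nfia.

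The steps between neighbours in the order were larger than their spread. Nfix stood 1.68-fold above Nfib (range over libraries 1.47 to 1.80), Nfib 1.85-fold above Nfia (1.66 to 1.93) and Nfia 1.42-fold above Nfic (1.352 to 1.503). Between the extremes, Nfix was 4.43-fold above Nfic (3.93 to 4.89). For each of the 6 pairs the same gene was higher in 6 of 6 libraries, and the exact two-sided sign-flip permutation test of the log2 ratio gave p = 0.03125, also after adjustment over the 6 pairs, which is the smallest value 6 libraries can give. These are ratios per kilobase. In reads not divided by length, the ratio of Nfix to Nfib cannot be placed above or below 1. Nfib to Nfix runs from 0.354 to 3.71 over the lengths of the listed transcripts. With the matched transcripts of Nfia, the same holds for Nfia to Nfib (0.579 to 1.58) and Nfia to Nfix (0.55 to 2.18). Nfic to Nfix ran from 0.138 to 1.0, so at the extreme of these lengths Nfic reached the reads of Nfix. In the library young 1 this extreme was 410 reads for Nfic and 363 for Nfix.

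**Figure D2:**
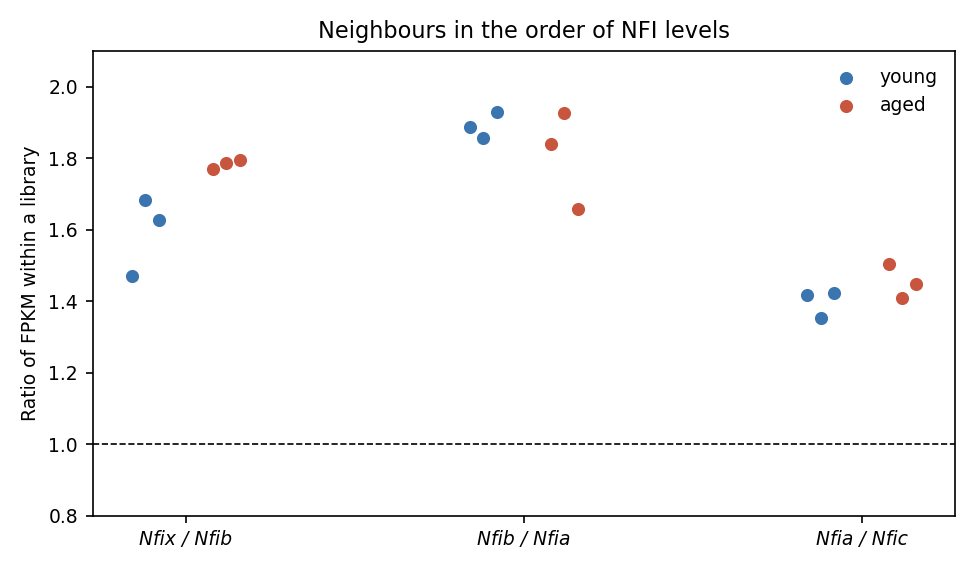
Ratio of FPKM (vertical axis) between neighbours in the order of NFI levels, with 1 point per library, young in blue and aged in red, and a dashed line at 1. Every point lies above 1, and for Nfix over Nfib the young points (1.47 to 1.68) lie below the aged ones (1.77 to 1.80).

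The comparison of aged with young libraries asks how the stem cell transcriptome differs with the age of the donor, and none of the 4 NFI genes passed it. By limma on log2(FPKM + 1), with adjustment over 11912 genes (those averaging 1 FPKM or more), 0 of 4 members had an adjusted p under 0.05, and 0 of 4 had an unadjusted p under 0.05. Of all genes tested, 0.722% passed, with 39 higher (0.327%) and 47 lower (0.395%) in aged libraries. The ranges of the 2 ages were apart in 17.6% of tested genes and in 0 of 4 members.

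Nfix averaged 52.2 ± 3.50 FPKM at the young age and 55.2 ± 3.81 FPKM at the older (SD, n = 3 each), a log2 difference of 0.079 ± 0.064 (SE, limma adjusted p = 0.711). Nfib was at 32.7 ± 0.460 and 30.9 ± 2.13 FPKM, a log2 difference of -0.082 ± 0.056 (limma adjusted p = 0.647). For Nfic the means were 12.4 ± 0.406 and 11.8 ± 0.783 FPKM (-0.068 ± 0.068, limma adjusted p = 0.774), and for Nfia 17.3 ± 0.0929 and 17.1 ± 0.674 FPKM (-0.016 ± 0.054, limma adjusted p = 0.942). The direction of Nfia turned without aged 1 (0.014). The absolute difference was larger than the median over all genes (0.07) for Nfib and Nfix, and smaller for Nfia and Nfic.

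A missed threshold does not show that the levels were equal, but the intervals bound the differences. The 95% interval of the aged over young fold, on the scale of FPKM + 1, ran from 0.908 to 1.076 for Nfia, from 0.865 to 1.032 for Nfib, from 0.857 to 1.062 for Nfic and from 0.954 to 1.169 for Nfix. They rest on 3 libraries a group and are not adjusted for the number of genes.

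**Figure D3:**
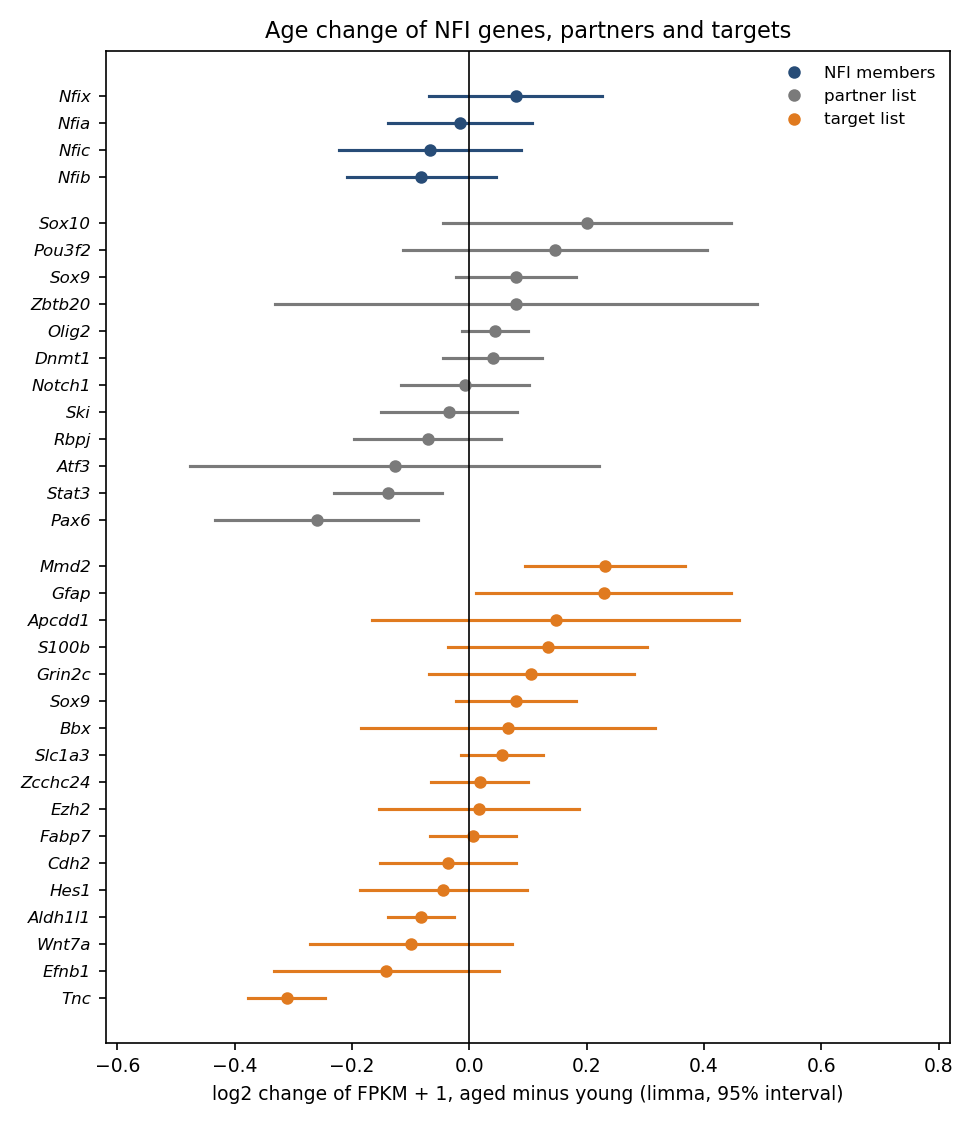
Log2 change of FPKM + 1 from young to aged libraries (horizontal axis, limma, with 95% intervals) for the 4 NFI genes (blue), 12 partner genes (grey) and 17 target genes (orange), where Sox9 stands in both lists. The 4 NFI intervals include 0, and Tnc, at -0.31, is the one gene of the plot with an adjusted p under 0.05.

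Summed over the 4 paralogs, NFI transcripts amounted to 110.5, 116.9 and 116.5 FPKM in the young and 110.7, 122.5 and 111.9 FPKM in the aged libraries. The group means were 114.6 ± 3.61 and 115.0 ± 6.504 FPKM (SD, n = 3 each), and an exact two-sided permutation test of their difference gave p = 0.9, where 3 libraries against 3 cannot go below 0.1. The sign of this small difference (0.367 FPKM) turned without young 1 (-1.72), without aged 2 (-3.37) and after rescaling to TPM (-1.41).

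The share of each paralog in this sum was compared between the ages, and 0 of 4 shares passed. Nfix supplied 43.6%, 46.5% and 46.3% of the summed FPKM in young and 48.1%, 48.6% and 47.1% in aged libraries, so every aged share was above every young one. The share of Nfib was 29.6%, 27.6% and 28.5% in young and 27.2%, 27.2% and 26.2% in aged libraries, again without overlap. Shares add up to a fixed whole, so that a higher share of one member lowers the others. For both, the exact two-sided permutation p was 0.1, the smallest possible, and 0.2 after adjustment over the 4 members. The shares of Nfia (15.1 ± 0.508% and 14.9 ± 0.845%) and Nfic (10.8 ± 0.378% and 10.3 ± 0.573%) overlapped between the ages (SD, n = 3 each, exact permutation p = 0.9 and 0.2).

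The ratio of Nfix to Nfib shows the same values without the other members. It was 1.470, 1.684 and 1.627 in young and 1.769, 1.786 and 1.796 in aged libraries. The exact permutation test between the ages gave p = 0.1 and, adjusted over the 6 pairs, 0.48. Nfix to Nfib was the only one of the 6 pairs whose ratios did not overlap between the ages.

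**Figure D4:**
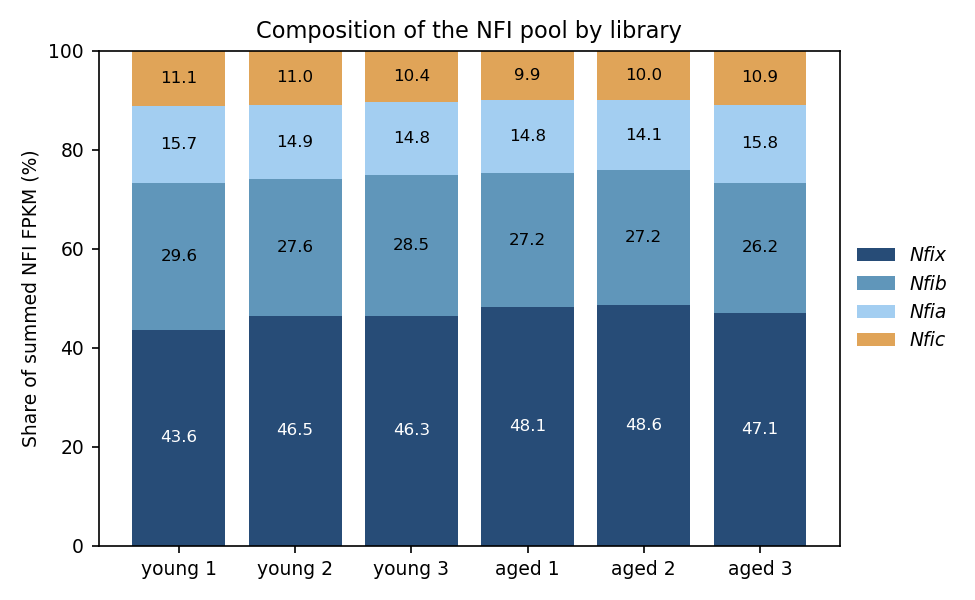
Share of each NFI gene in the summed FPKM of the family (vertical axis, percent) in the 6 libraries, with the shares printed in the bars. Nfix holds 43.6% to 46.5% in young and 47.1% to 48.6% in aged libraries.

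Across the 6 libraries, Nfia and Nfic varied together most closely (Pearson r of log2 values 0.87), while Nfib and Nfic had an r of 0.46 and the other 4 pairs lay between -0.03 and 0.22. These correlations describe 6 points that share a library and its scaling. The 3 genes most like each member over the 6 libraries, out of 11095 compared, were Zfp438, Cdk9 and Zeb2 for Nfia (r from 0.974 to 0.988) and Pkd2, Cacna1b and Pcnxl3 for Nfib (0.989 to 0.992). For Nfic they were Ufc1, Usp15 and Champ1 (0.984 to 0.994), and for Nfix Phrf1, Zfp36l1 and Rps4l (0.98 to 0.998). With 6 points such values are common, and 59 to 155 genes exceeded an r of 0.9 with a given member.

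Genes next to the members were compared too, since they share the chromosomal region. The antisense transcript E130114P18Rik, which overlaps the 5′ end of Nfia on the opposite strand, was at 13.2, 9.74 and 12.17 FPKM in the young and 12.57, 13.12 and 14.32 FPKM in the aged libraries (limma adjusted p = 0.567). Whether the counting used strand is not given, so reads of the overlap cannot be told apart. The leukemia-associated factor Lyl1, which touches the 3′ end of Nfix from the opposite strand, stayed at 0.21 FPKM or less in every library. Trmt1, a tRNA methyltransferase gene 4904 bases from Nfix, was at 28.1 FPKM in the young and 26.4 FPKM in the aged libraries (limma adjusted p = 0.570), without overlap between the ages and with a direction opposite to that of Nfix. On the other side of Nfix, Dand5 was at 1.4 to 3.17 FPKM. The nearest measured genes around Nfia were Cyp2j5 (0 to 0.05 FPKM) and Tm2d1 (18.35 to 21.47 FPKM). Those around Nfib were Gm5860 (0.34 to 2.05 FPKM) and Zdhhc21 (7.19 to 8.36 FPKM), and those around Nfic Smim24 (0 to 0.34 FPKM) and Celf5 (2.55 to 3.54 FPKM). None of the 6 neighbours that passed the filter was called, against 0.722% of all genes tested. Of these 6, Trmt1 alone had values without overlap between the ages, against 17.6% of all genes tested.

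Factors that act with, upstream of or against NFI proteins in glial development were taken as a list of 13, of which 12 passed the filter and 0 were called, against 0.722% of all genes. The median log2 difference of the 12 was 0.016, against 0.0027 for all genes, with 6 higher and 6 lower in aged libraries. Pax6, a neurogenic factor, was at 10.08, 10.16 and 9.38 FPKM in the young and 8.35, 8.49 and 7.42 FPKM in the aged libraries, without overlap (limma adjusted p = 0.219). Stat3, the transducer of gliogenic cytokine signals, was at 50.8 and 46.1 FPKM, also without overlap (0.223). Sox10, an oligodendrocyte factor that opposes NFIA, was at 3.17 and 3.78 FPKM (0.531), and the oligodendrocyte and progenitor factor Olig2 averaged 538.3 and 555.0 FPKM (0.548). Sox9, which induces and then partners NFIA, was at 40.2 and 42.6 FPKM (0.555). In 6 of the 12 the values of the ages did not overlap, against 17.6% of all genes tested. The list was chosen with earlier results of these data known, so this count describes it and is no test of it.

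Genes reported to depend on NFI factors in neural cells made a list of 20, of which 19 were in the tables and 17 passed the filter. Of these 17, 0 rose and 1 fell by limma, where 0.722% of all genes tested were called and 0.395% called lower. An unadjusted limma p under 0.05 was found in 4, and 8 did not overlap between the ages, against 17.6% of all genes. This list, with its glial, progenitor and neuronal parts, was also chosen with earlier results of these data known. Its counts and its call are therefore descriptions and no test of NFI targets. The median log2 difference was 0.017. The gene that fell was Tnc, the extracellular matrix protein tenascin C of the stem cell niche, with 308.07, 303.38 and 304.25 FPKM in the young and 239.96, 252.13 and 245.52 FPKM in the aged libraries. Its log2 change was -0.31 ± 0.029 (SE, limma adjusted p = 0.00397), with an adjusted p of 0.0809 without limma's trend.

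Among the 9 glial targets, 7 were higher and 2 lower in aged libraries, and 6 of 9 did not overlap, against 17.6% of all genes tested. Gfap, S100b and Aldh1l1, which were among those without overlap, stand in the astrocyte marker list below as well. Fabp7 stands also in the list of stem and progenitor markers, so these lists are not separate observations. Mmd2, an astroglial target of NFIA and SOX9, was at 29.39, 27.4 and 31.36 FPKM in the young and 36.32, 33.46 and 34.14 FPKM in the aged libraries (limma adjusted p = 0.163). The intermediate filament gene Gfap was at 3.69 and 4.49 FPKM (0.396). Aldh1l1, the folate enzyme used as an astrocyte marker, was at 348.5 and 329.3 FPKM (0.229). Fabp7, a fatty acid binding protein of radial glia, was the most abundant target at 2734 and 2747 FPKM (0.968). Both directions thus occurred among glial targets, and apart from Tnc none passed.

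Of the 4 progenitor targets that passed the filter 0 were called, against 0.722% of all genes. Ezh2, a Polycomb methyltransferase repressed by NFIB, was at 49.3 and 49.8 FPKM (limma adjusted p = 0.962), and the Notch effector Hes1 at 29.5 and 28.7 FPKM (0.854). Insc, an Nfix target in spindle orientation, reached at most 0.16 FPKM. The neuronal targets Cntn2 and Cdh2 stood far apart, at 0.02 to 0.2 FPKM and at 57.59 to 65.27 FPKM. Of 4 tested neuronal targets 0 were called, again against 0.722%.

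The promoter of Tnc is shown because Tnc is the called gene of the target list. The NFI palindrome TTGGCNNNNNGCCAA and its 5-base part TTGGC, which is contained in it, were searched on both strands in RefSeq promoter windows on GRCm38.p6, from 250 bases before to 50 bases after each start. The 250 bases before one annotated start of Tnc, chr4:64046937-64047186 on the minus strand, read as follows, with capitals marking the match to TTGGC on the opposite strand.
Tnc: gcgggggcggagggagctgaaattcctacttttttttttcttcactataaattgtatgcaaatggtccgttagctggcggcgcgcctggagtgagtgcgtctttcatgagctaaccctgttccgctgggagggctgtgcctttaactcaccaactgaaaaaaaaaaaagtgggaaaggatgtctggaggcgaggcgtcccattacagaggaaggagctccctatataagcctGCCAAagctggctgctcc
The match begins 18 bases before the start, and the window of the other annotated Tnc start held none. The short motif occurred in 46.7% of 32851 promoter windows. It occurred in 10 of 16 windows, covering 15 of the 20 target genes, and in 6 of 15 windows, covering 11 of the 13 partner genes. For the NFI genes Nfia, Nfic and Nfix it was in 3 of 6 windows. The median share of G and C bases was 52.7% in all windows, 59.8% for targets, 64.7% for partners and 51.2% for NFI genes. The windows compared were not matched for this share, so the frequencies were not tested against each other. The full palindrome occurred in 12 windows (0.0365%), none of them of these genes. A match is a description of the letters and says nothing about binding.

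The cell type named in the labels was checked against markers. All 8 markers of neural stem and progenitor cells were expressed, from Prom1 (mean 1.47 FPKM) to Fabp7, while Ptprc, Pecam1, Dcn, Pdgfrb and Rgs5, which define immune, endothelial, fibroblast and pericyte cells, were at 0.17 FPKM or less in every library. Other genes of those lists were higher. Cd68, a lysosomal gene of microglia, was at 2.22 to 3.69 FPKM over the 6 libraries. Egfl7, a secreted factor of endothelium, was at 1.25 to 1.72 FPKM in the young and 2.42 to 2.71 FPKM in the aged libraries, without overlap (limma adjusted p = 0.147). The sum of the 4 endothelial markers was 1.57 to 2.76 and 2.86 to 3.13 FPKM, also without overlap, and that of the 3 measured microglial markers 2.41 to 3.96 and 2.74 to 3.19 FPKM. Markers of neuroblasts and neurons (6 genes) summed to 142.2 to 146.3 FPKM in the young and 137.8 to 146.2 FPKM in the aged libraries. Map2 (mean 127.2 FPKM) made up most of it. Of the 3 tested, 2 were higher and 1 lower in aged libraries. Tubb3 was at 9.37 and 12.1 FPKM, without overlap (limma adjusted p = 0.140). The 4 ependyma and choroid plexus markers summed to 12.3 to 13.7 and 10.4 to 13.9 FPKM, mostly Foxj1 (mean 11.0 FPKM). Summed markers of the oligodendrocyte lineage (6 genes) were at 20.7 to 22.4 FPKM in the young and 26.5 to 27.95 FPKM in the aged libraries. Of the 4 tested genes of this list 0 were called, against 0.722% of all genes tested. Summed astrocyte markers (5 genes) were at 379.4 to 383.2 and 363.6 to 369.0 FPKM, carried mostly by Aldh1l1. Aldh1l1 was the 1 astrocyte marker with a lower mean in aged libraries, while Gfap, Slc1a2, S100b and Aqp4 had higher means. None of the 5 was called, against the same 0.722%. Summed markers of fibroblasts and pericytes (6 genes) were at 0.45 to 0.64 and 2.68 to 3.72 FPKM, nearly all Col1a1 and Col1a2. Col1a1 was called higher (limma adjusted p = 0.0107). Its young values of 0.54, 0.31 and 0.42 all lay under the filter of 1 FPKM. The aged values were 2.04, 2.53 and 2.81. Col1a1 thus reached the filter, with a mean of 1.44 FPKM over 6 libraries, only through its higher aged level. That it was tested at all therefore depended on the difference it was called for. With the replicate number as a block the adjusted p of Col1a1 was 0.0643. The oligodendrocyte, astrocyte, endothelial, and fibroblast and pericyte sums did not overlap between the ages, like Tnc and the Nfix share, and their part in those values was not tested. Sums of the stem and progenitor, neuron, ependyma and microglia lists overlapped. Among single genes tested, 17.6% did not overlap between the ages. In bulk RNA, fewer cells of a type and less RNA per cell cannot be told apart.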

How the data were processed

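Each of the 6 libraries has 1 table of FPKM values per gene, made by the authors from rRNA-depleted total RNA, per the file headers and the labels' protocols. The submitters' processing notes list TopHat, Cuffdiff and the mm10 build without versions. Transcript lengths, strand setting, filters and normalization between libraries are not given in the sources used here. Because the deposited values are FPKM and not counts, limma 3.58.1 in R 4.3.3 (eBayes with a trend, 6 libraries, no covariates, two-sided, Benjamini-Hochberg, threshold 0.05) was run on log2(FPKM + 1), keeping 11912 genes that averaged 1 FPKM or more. The test was tested on simulated data with spreads shuffled among genes, so its trend setting was not examined there. Exact permutation tests were run in Python 3.11.15. Depth came from the spacing of low values in 662 to 702 genes with 1 transcript of 300 to 2000 bases per library, and is approximate. Coordinates come from RefSeq (GRCm38.p6), which held 16962 of 17006 gene identifiers. Coding sequences come from the listed transcript with the longest coding part, aligned with MAFFT. Named genes were the 4 members, the 4 genes of the partner list and of the target list with the smallest p, the 3 genes most like each member, the nearest measured genes on each side, and marker genes. Others of the lists (Sox9, Fabp7, Ezh2, Hes1, Insc, Cntn2, Cdh2) and the overlapping genes were named after their values were seen. The members and lists were chosen with earlier results of these data known, the lists from general knowledge. Alternatives covered the pseudocount, filter, scaling, variance model, replicate block and each library left out.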

Additional observations from a re-analysis of the deposited data

How the results depend on the processing

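None of the 4 NFI genes was called in any of the 16 alternative fits, with limma adjusted p from 0.323 (Nfib without aged 2) to 0.971. The log2 difference ranged from -0.136 to -0.046 for Nfib, from -0.096 to -0.016 for Nfic and from 0.023 to 0.111 for Nfix, and that of Nfia (-0.039 to 0.014) turned positive only without aged 1. The partner list had 0 calls in each alternative, and the target list had 0 without limma's trend, where Tnc was lost, and 1 in the others. Counts over all genes were less stable. Against 39 higher and 47 lower genes, limma without trend called 7 and 4, and no filter called 29 lower. With the replicate number as a block, 11 genes were higher and 11 lower, and log2 differences of the members were those of the fit without it. Same-numbered libraries had correlations of their deviations from group means of 0.008, -0.072 and 0.108. Those of libraries with different numbers ran from -0.109 to 0.111, and not every library correlated best with its own number. Values this weak, from 3 libraries a group, cannot tell whether equal numbers share animals or a day. With 1 library left out, 17 to 37 genes were higher and 22 to 33 lower. The age difference of the NFI total (0.367 FPKM) became -1.41 after rescaling to TPM, and ranged from -3.37 to 2.54 with 1 library left out. The difference in the Nfia share (-0.206 percentage points) became 0.0857 without young 1 and 0.185 without aged 2, within a range of -0.654 to 0.185, while those of Nfib (-2.19 to -1.17), Nfic (-0.884 to -0.349) and Nfix (1.52 to 2.98) kept their sign with any 1 library left out. The log2 ratios of paralog pairs kept their direction throughout. Fewer libraries cannot reach p under 0.05 (0.0625 at the least with 5 libraries and 0.25 with 3). In young and in aged libraries alone they were -0.918 and -0.851 for Nfia to Nfib, 0.482 and 0.538 for Nfia to Nfic, -1.588 and -1.686 for Nfia to Nfix, 1.401 and 1.389 for Nfib to Nfic, -0.670 and -0.835 for Nfib to Nfix, -2.070 and -2.224 for Nfic to Nfix. With 1 library left out they ranged from -0.916 to -0.872 for Nfia to Nfib, from 0.495 to 0.525 for Nfia to Nfic, from -1.670 to -1.608 for Nfia to Nfix, from 1.381 to 1.421 for Nfib to Nfic, from -0.792 to -0.734 for Nfib to Nfix, from -2.182 to -2.119 for Nfic to Nfix. Depth limits Nfic most, at 193 to 432 reads per library.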
